A study of Papio anubis with 3 samples.

Results

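Peaks that carried both H3K27me3 and H4K20me3 in subventricular zone neural progenitor cells of the baboon are described here. They were chosen by position: each H3K27me3 peak that shared at least 1 bp with an H4K20me3 peak was taken, together with the H4K20me3 peaks it touched. This gave 224 of the 709 H3K27me3 peaks (31.6%, exact 95% interval 28.2 to 35.2) and 305 of the 10000 H4K20me3 peaks (3.05%, 2.72 to 3.41), which formed 310 overlapping pairs. H4K20me3 peaks lay on 21 chromosomes and H3K27me3 peaks on 17. On those 17, the H4K20me3 share was 305 of 6757 (4.51%, 4.03 to 5.04). Since the overlap itself selected these peaks, their values, folds and widths included, are given as a description with no test.

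The cells were labelled as neural progenitors and were dissociated from freshly dissected subventricular zone, a stem cell niche of the brain, of an adult Papio anubis baboon. They were captured on beads carrying antibodies to cell type markers, of which Nestin, GFAP, Doublecortin, PSA-NCAM and Vimentin are named, then fixed and sheared. Chromatin immunoprecipitation sequencing (ChIP-seq) was done for H3K27me3 and H4K20me3, with total H3 and total H4 immunoprecipitates for normalization. No treatment, genotype or age in years is named, and each mark has 1 library; replicate error is therefore unknown throughout, and intervals cover counting error only. Captured cells may be a mixture of several progenitor types, and a peak list cannot show whether the marks sat in the same cell. The lists hold positions without gene names, so the labelled cell type was not checked against marker genes.

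H3K27me3 is trimethylation of lysine 27 of histone H3, deposited by Polycomb repressive complex 2, and in neural stem cells it is known for covering silent developmental genes. H4K20me3 is trimethylation of lysine 20 of histone H4, made by the SUV420H enzymes, and is known for constitutive heterochromatin such as satellite and other repeated DNA. The former typically forms wide domains and the latter is concentrated in compact heterochromatin, where H3K9me3 recruits its enzymes.

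The overlap was concentrated where the control library was itself deep, and every result below has to be read beside that measurement. Control pileup, the control coverage that the peak caller set against a peak, was recovered from the fold and p of each peak; a peak was counted as deep in control above 2 times the lowest value in its list (10.4 for H3K27me3 and 7.00 for H4K20me3). For H3K27me3 the recovered values are approximate and were not verified. Only 5.78% of its peaks gave a ChIP pileup that was a whole number, while all 10000 H4K20me3 peaks did. Of the 224 H3K27me3 peaks with both marks, 218 (97.3%) were deep in control by this measure, against 47.0% of all H3K27me3 peaks. Of the 305 H4K20me3 peaks with both marks, 304 (99.7%) were deep in control, against 14.3% of all H4K20me3 peaks. Both peaks were deep in 304 of the 310 pairs, the H4K20me3 peak alone in 5, and neither in 1. What part the deep control had in the overlap was not tested.

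Depth of control rose and fell together in the paired peaks. Across the 310 pairs, control pileup at the H3K27me3 peak and at its H4K20me3 partner had a Spearman correlation of 0.77 and a Pearson correlation of 0.78. The pairs share genomic stretches, and the sources used here do not say which control went with which list, so this is a description. Median control pileup was 61.4 at the H3K27me3 members (quartiles 35.8 to 99.9) and 58.2 at the H4K20me3 members (39.9 to 82.9). Even among deep peaks, those without the other mark were shallower, with medians of 26.3 for 115 H3K27me3 peaks and 9.97 for 1126 H4K20me3 peaks.

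**Figure D1:**
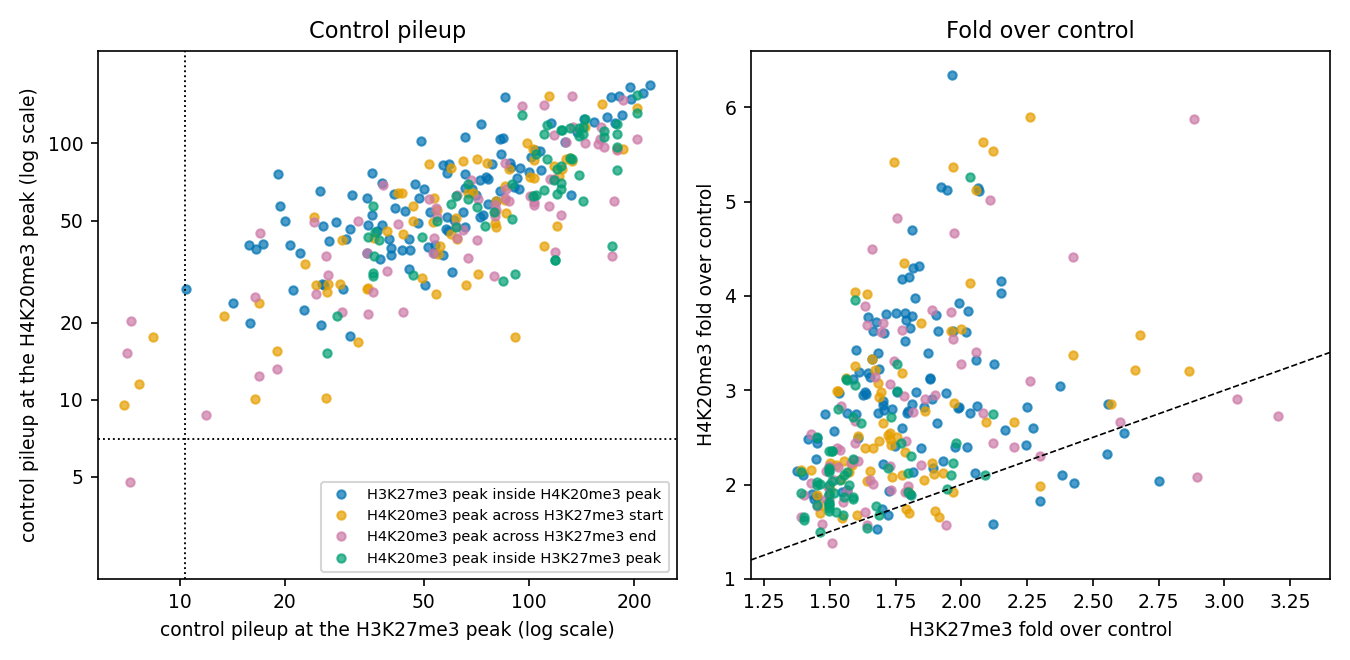
Left: control pileup at both peaks of each of the 310 pairs (log axes), with dotted lines at the limits of 10.4 and 7.00 above which a peak is deep in control; 304 pairs lie beyond both. Right: fold over control of both peaks of each pair, with a dashed line of equal fold, above which 286 pairs lie. Colours show how the peaks lie.

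The pairs were of 4 kinds, and the most frequent was the H3K27me3 peak lying wholly inside an H4K20me3 peak, although the H3K27me3 list has the broad layout and the H4K20me3 list the narrow one. This held for 110 of 310 pairs (35.5%, 30.2 to 41.1). In 72 pairs (23.2%) the H4K20me3 peak reached across the lower-coordinate edge of the H3K27me3 peak, called its start here, and in 67 (21.6%) across its end. The H4K20me3 peak was nested in the H3K27me3 peak in 61 pairs (19.7%, 15.4 to 24.5). Counted by peak, 110 of 224 H3K27me3 members (49.1%, 42.4 to 55.9) were enclosed by 1 H4K20me3 peak, while 61 of 305 H4K20me3 members (20%, 15.7 to 24.9) were enclosed by 1 H3K27me3 peak. Those 61 lay in 40 H3K27me3 peaks.

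Which peak enclosed the other went with width, as geometry requires. Enclosed H3K27me3 peaks had a median width of 501.5 bp (quartiles 348 to 960) inside H4K20me3 peaks of 965 bp (571 to 1588). Enclosed H4K20me3 peaks had a median width of 376 bp (245 to 760.0) inside H3K27me3 peaks of 2550.0 bp (1175 to 3338; a wide peak counts once for each H4K20me3 peak nested in it). In all, the H4K20me3 peak was the wider one in 132 of 310 pairs (42.6%). H4K20me3 peaks with both marks were wide for their list, with a median of 634 bp against 289 bp for the rest. H3K27me3 members had a median of 796 bp against 535 bp. A wide peak has more bases with which to meet another, so part of both differences is built into the rule.

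**Figure D2:**
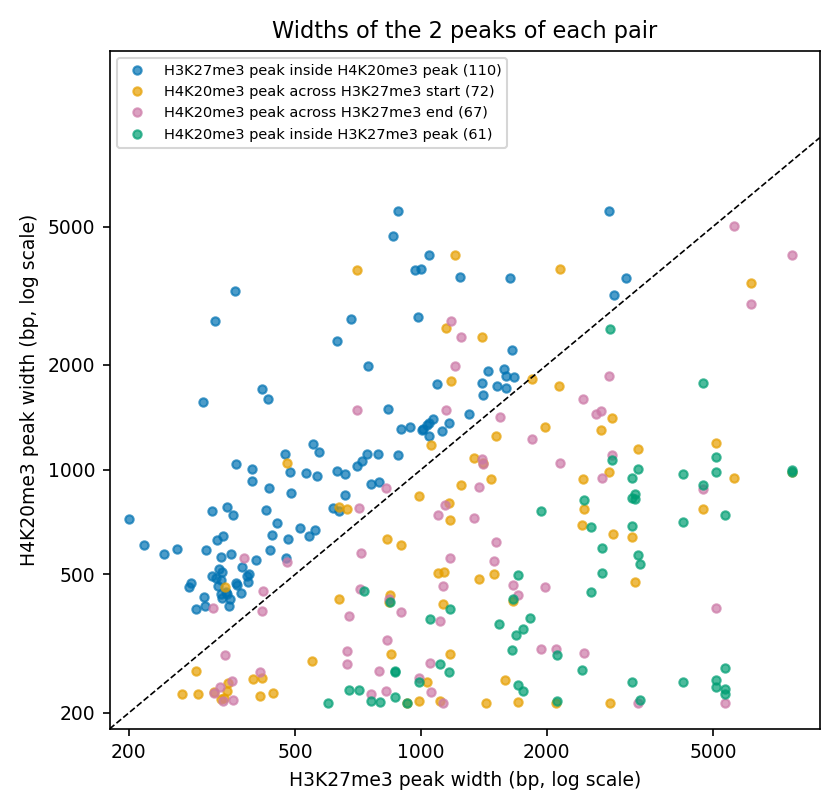
Width of the H3K27me3 peak against width of the H4K20me3 peak for the 310 pairs, both axes logarithmic, with a dashed line of equal width. The 110 pairs with an enclosed H3K27me3 peak lie above the line, the 61 with an enclosed H4K20me3 peak below it, and the others on either side.

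Where an H3K27me3 peak was enclosed, its edges often followed those of the H4K20me3 peak closely. The nearer pair of edges was a median of 70.0 bp apart (quartiles 46.3 to 146, range 3 to 1397) and the farther pair 187 bp (92.8 to 332, up to 3747) in these 110 pairs. Enclosed H4K20me3 peaks lay a median of 495 bp from the nearer edge of the H3K27me3 peak (173 to 837, range 7 to 2470). The widths bound these distances. Median widths were 376 bp inside 2550 bp for enclosed H4K20me3 peaks and 501.5 bp inside 965 bp for enclosed H3K27me3 peaks. Part of the contrast is thus built in. Over all 310 pairs, starts lay within 100 bp of each other in 94 (30.3%), ends in 92 (29.7%) and both in 39 (12.6%).

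The 2 marks shared 189 kb in all. This was 74.3% of the 255 kb in the H3K27me3 members and 68.0% of the 278 kb in the H4K20me3 members. Against the full lists, it was 33.7% of the H3K27me3 length and 4.69% of the H4K20me3 length. The shared stretch of a pair had a median of 422 bp (interval 384 to 476, quartiles 261 to 792) and ran from 7 to 4902 bp. It reached 1000 bp or more in 47 pairs (15.2%) and stayed under 100 bp in 11 (3.55%). In 284 pairs (91.6%, 88.0 to 94.4) it took up at least 50% of the shorter peak, so over all pairs a glancing contact of edges was the exception. These include 171 nested pairs, which share 100% of the shorter peak by definition.

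The 5 longest shared stretches lay on chromosomes 1, 11 and 6, in papAnu2 coordinates counted from 1. On chromosome 1 the H3K27me3 peak at 98176048 to 98181647 (5600 bp, fold 1.66) and the H4K20me3 peak at 98176746 to 98181749 (5004 bp, fold 4.50) shared 4902 bp. That H4K20me3 peak had a -log10 q of 81.9, and 98.0% of its length was shared. On chromosome 11 the H3K27me3 peak at 34739905 to 34747623 shared 4043 bp with the H4K20me3 peak at 34743581 to 34747726. On chromosome 6 the H3K27me3 peak at 25167314 to 25173491 shared 3280 bp with the H4K20me3 peak at 25167149 to 25170593.

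The other 2 of these 5 were enclosed H3K27me3 peaks on chromosome 11. The first, at 34761800 to 34764895 (3096 bp, fold 1.60), lay in an H4K20me3 peak of 3556 bp with fold 2.74. The second, at 34458926 to 34461824 (2899 bp, fold 1.60) lay in one of 3174 bp with fold 3.42. Enclosure was thus not limited to short H3K27me3 peaks.

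At the other end, the members nearest to the limit of 1 bp shared 7 bp on chromosome 8 (H3K27me3 at 41186 to 41601), 44 bp and 59 bp on chromosome 9 (495380 to 495821 and 3202040 to 3203703), 49 bp on chromosome 13 (127552306 to 127554411) and 60 bp on chromosome 6 (17429239 to 17430080). Just outside the limit, the closest peaks that did not touch were 73 bp apart on chromosome 11 (34329735 to 34330080), 90.0 bp on chromosome 9 (473773 to 474464), 106 bp on chromosome 7 (161340366 to 161340697), and 112 bp on each of chromosomes X (54674688 to 54675064) and 13 (85462519 to 85463458). Of these, the peaks on chromosomes 11, X and 13 were members through another H4K20me3 peak, and those on chromosomes 9 and 7 were not members. Few peaks were near misses. Of the 485 H3K27me3 peaks without H4K20me3, 11 had an H4K20me3 peak within 1 kb and 93 within 50 kb, and the median distance was 735702 bp (quartiles 148802 to 2002175 bp).

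The summit of an H4K20me3 peak is the base where the caller found its strongest signal. In 282 of 310 pairs (91.0%, 87.2 to 93.9) it fell inside the H3K27me3 peak. For the 61 enclosed H4K20me3 peaks this holds by definition, and without them it was inside in 221 of 249 pairs (88.8%, 84.2 to 92.4). In the remaining 28 it lay a median of 152 bp outside (quartiles 93.3 to 461, range 13 to 1934), 15 of them before the start. Seen from the H3K27me3 side, 155 members held 1 summit, 42 held 2, 12 held more than 2, and 15 held none.

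With all kinds of pair pooled, summits were spread over the whole H3K27me3 peak. Counted from the start, the median position was 49.4% of the peak's width (interval 45.6 to 52.7, quartiles 22.5 to 73.4). From start to end, the 5 equal parts of the width held 63, 51, 68, 43 and 57 of the 282 summits. Pairs of different kinds filled different parts. The median position was 51.5% in 100 enclosed H3K27me3 peaks and 47.4% for 61 enclosed H4K20me3 peaks, against 14.4% where the H4K20me3 peak crossed the start and 84.1% where it crossed the end. The last 2 follow from how those kinds are defined. In distance, summits lay a median of 248 bp from the centre of the H3K27me3 peak and 179 bp from its nearer edge. As a share of its width, the median distance from the centre was 16.0% for enclosed H3K27me3 peaks and 18.7% for enclosed H4K20me3 peaks. It was 35.6% where the H4K20me3 peak crossed the start and 34.1% where it crossed the end.

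**Figure D3:**
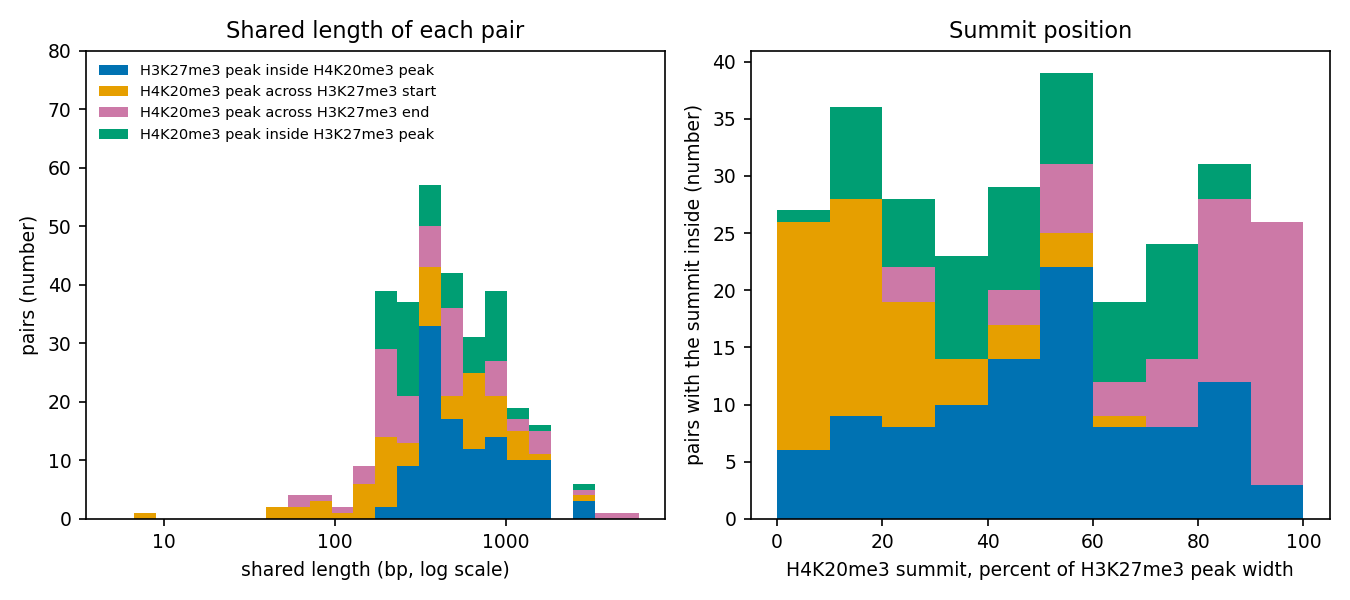
Left: number of pairs by shared length (log axis), stacked by how the peaks lie; the median is 422 bp. Right: number of pairs by the position of the H4K20me3 summit along the H3K27me3 peak, in steps of 10% of its width from the start, for the 282 pairs with the summit inside.

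The summits farthest outside belonged to long H4K20me3 peaks. On chromosome 11 the H4K20me3 peak at 34445849 to 34451402 enclosed the H3K27me3 peak at 34446773 to 34447655, and its summit at 34449589 was 1934 bp beyond that peak's end. The same summit was inside the next H3K27me3 peak, at 34448492 to 34451302, at 39.0% of its width. One H4K20me3 peak therefore spanned 2 H3K27me3 peaks there.

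This bridging was rare. Of the 305 H4K20me3 members, 300 met 1 H3K27me3 peak and 5 met 2. Besides the one above, the H4K20me3 peak at chromosome 11 position 34693585 to 34697720 (4136 bp, fold 3.63) met H3K27me3 peaks sharing 1045 and 642 bp, and held its summit in neither. Another on chromosome 11, at 34749583 to 34751989 (fold 2.39), shared 562 and 851 bp with its partners. On chromosome 12 the peak at 24472 to 28257 (fold 2.78) shared 998 and 1134 bp, and on chromosome 13 the peak at 108420319 to 108422991 (fold 2.75) shared 453 and 322 bp. Linked through shared partners, the members formed 219 groups, of which 154 were single pairs.

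Several H4K20me3 peaks on 1 H3K27me3 peak were more frequent. One H4K20me3 peak was found on 159 H3K27me3 members, 2 on 52, 3 on 8, 4 on 3, 5 on 1 and 6 on 1, so 65 of 224 (29.0%, 23.2 to 35.4) had more than 1. These 65 took part in 151 of the 310 pairs. Their median width was 1406 bp (quartiles 987 to 2699), against 600.0 bp (352 to 1022) for those with 1. H4K20me3 covered a median of 76.0% of their length, while it covered a median of 100% of an H3K27me3 peak with 1 partner. Over all 224 the median covered share was 99.0% (quartiles 60.3 to 100), with 39 peaks (17.4%) under 50%.

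The gaps between multiple H4K20me3 peaks are bounded by the rule, since both neighbours touch the same H3K27me3 peak. Neighbours on the same H3K27me3 peak were separated by a median of 199.5 bp (quartiles 66.5 to 395, range 37 to 1792), and 77 of these 86 gaps were under 500 bp. Over the whole H4K20me3 list, where that bound does not apply, 2947 of 9979 gaps (29.5%) were under 500 bp. Summits of neighbours on the same H3K27me3 peak were a median of 876 bp apart (633 to 1188). With H4K20me3 peaks under 500 bp apart joined before counting, 8 of 224 H3K27me3 members (3.57%) met more than 1, so the number per H3K27me3 peak rests on short gaps. The same joining raised the enclosed H3K27me3 members from 110 to 152 (67.9%), an alternative chosen after seeing the data.

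The 5 H3K27me3 peaks with the most partners show the pattern in detail. On chromosome 9, the peak at 759596 to 764667 (5072 bp, fold 1.45, control pileup 178) met 6 H4K20me3 peaks of 238 to 1191 bp, whose summits were at 11.7, 15.3, 34.2, 50.8, 77.1 and 96.7% of its width. Their folds lay between 1.77 and 2.50, and together they covered 70.8% of it. Partners were sparser on the chromosome 9 peak at 3078681 to 3084030 (5350.0 bp, fold 1.496, control pileup 124), where 5 H4K20me3 peaks with folds of 1.79 to 1.996 covered 30.0%.

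A further peak on chromosome 9, at 742347 to 745656 (3310.0 bp, fold 1.39, control pileup 203), met 4 with folds of 1.66 to 2.15. The summit of its last partner fell 13 bp past the end. On chromosome 11 the widest H3K27me3 peak of all, at 34739905 to 34747623 (7719 bp, fold 1.60), met 4 whose folds declined along it as 4.04, 3.95, 3.06 and 2.44, while their control pileups rose as 39.9, 65.8, 109 and 141. On chromosome X the peak at 57641180 to 57645917 (4738 bp, fold 1.76) met 4 with folds of 2.50, 3.00, 3.28 and 4.83. In 4 of these 5 peaks the partners also reached over both ends, and in the sparser chromosome 9 peak over the end alone.

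**Figure D4:**
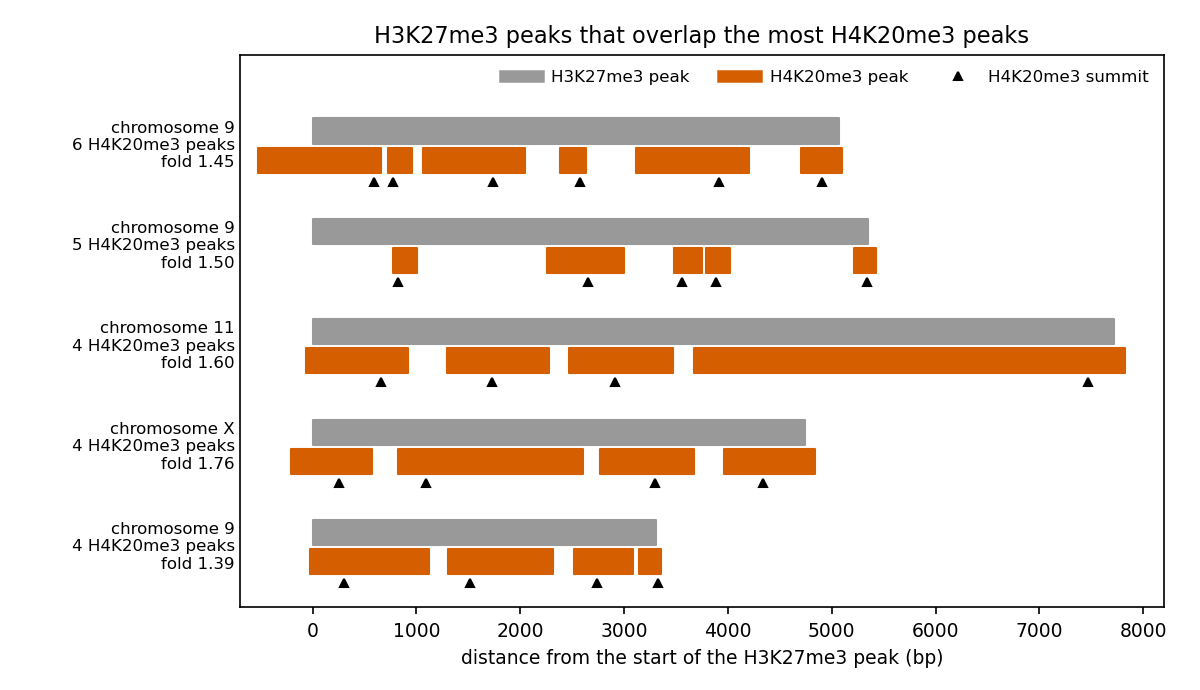
Map to scale of the 5 H3K27me3 peaks (grey) that overlap the most H4K20me3 peaks (orange), by distance in bp from the start of the H3K27me3 peak, with triangles at H4K20me3 summits and the H3K27me3 fold at the left. The second from the top has the most uncovered length (30.0% covered).

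By chromosome, pairs were found on all 17 chromosomes with an H3K27me3 peak, and chromosomes 9 and 11 held 68 and 42 of the 310. The share of H3K27me3 peaks with H4K20me3 was 60.4% on chromosome 11 (29 of 48, interval 45.3 to 74.2), 53.8% on chromosome 13 (14 of 26, 33.4 to 73.4) and 47.5% on chromosome 9 (38 of 80, 36.2 to 59.0). It was 15.1% on chromosome X (14 of 93, 8.48 to 24.0) and 10.3% on chromosome 4 (6 of 58, 3.89 to 21.2). On these chromosomes, 31 of 48 H3K27me3 peaks were deep in control on chromosome 11, 16 of 26 on chromosome 13, 61 of 80 on chromosome 9, 20 of 93 on X and 13 of 58 on chromosome 4. Both shares were higher on chromosomes 11, 13 and 9 than on X and 4. On chromosome 8, 33 of 50 H3K27me3 peaks were deep and 20 (40%) had both marks. These were 13 and 8 (36.4%) of 22 on chromosome 17, and 9 and 4 (28.6%) of 14 on chromosome 10. Over the whole list, 31.6% had both marks. What part deep control had in these shares was not tested. On X, 1 H3K27me3 peak lay beyond the last listed H4K20me3 peak, which ends at 141053364 and closes a list of exactly 10000. Such a round number may come from a cut list, in which case the overlap counts would be lower limits.

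On chromosome 9 an enclosed H4K20me3 peak was the more frequent kind of nesting. There 31 of 68 pairs (45.6%, 33.5 to 58.1) had the H4K20me3 peak inside the H3K27me3 peak and 5 (7.35%, 2.43 to 16.3) the reverse. On the other chromosomes together these were 30 of 242 (12.4%, 8.52 to 17.2) and 105 (43.4%, 37.1 to 49.9). These intervals treat pairs as independent and are likely too narrow. Of the 68 chromosome 9 pairs, 33 lay between 373060 and 621997 and 19 between 729975 and 767369, and some shared an H3K27me3 peak. Chromosome 9 pairs had wider H3K27me3 peaks (median 1664 against 976 bp), narrower H4K20me3 peaks (400.0 against 769 bp), lower folds (1.498 against 1.77 for H3K27me3, 1.94 against 2.80 for H4K20me3) and deeper control at the H3K27me3 peak (124 against 59.9). Chromosome 17 also had more enclosed H4K20me3 than H3K27me3 peaks, 4 against 2 of 14 pairs, and chromosome 15 had 1 of each. Without chromosome 9, enclosed H4K20me3 members fell to 12.7%. All 6 pairs on chromosome 4 had the H3K27me3 peak enclosed, and none of the pairs on chromosomes 2, 4 and 14 (13, 6 and 11) had an enclosed H4K20me3 peak.

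**Figure D5:**
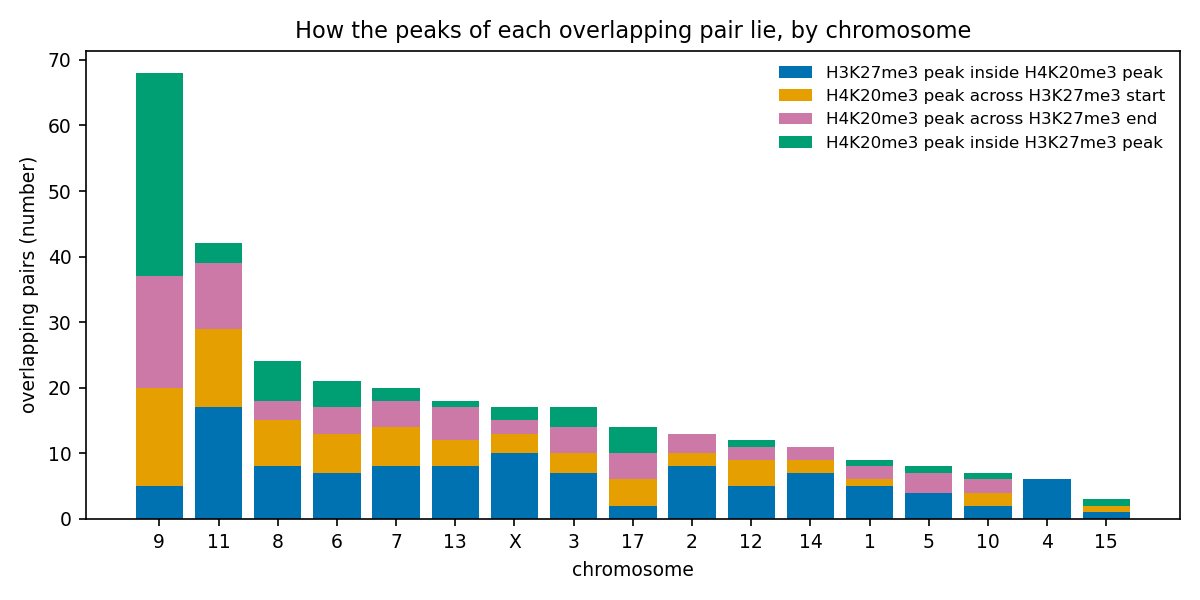
Number of overlapping pairs on each of the 17 chromosomes, stacked by how the 2 peaks lie. On chromosome 9 enclosed H4K20me3 peaks make up 31 of 68 pairs, and on chromosome 11 they make up 3 of 42.

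Joined where they were less than 50 kb apart, the members formed 121 regions with a median length of 1.03 kb, and 81 of these held a single pair. The 15 regions with 5 or more pairs held 164 of the 310. On chromosome 9 the region from 373060 to 621997 had 33 pairs, of which 15 were enclosed H4K20me3 peaks and 0 enclosed H3K27me3 peaks. The next on that chromosome, from 729975 to 767369, had 19, with 8 and 2. Median control pileup at the H3K27me3 members was 70.7 in the first of these regions and 178 in the second.

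The 2 regions on chromosome 11 differed from these. From 34693585 to 34766639 there were 23 pairs with 3 enclosed H4K20me3 and 5 enclosed H3K27me3 peaks, and from 34413725 to 34505561 there were 14, with 0 and 8. H4K20me3 members had median widths of 1072 and 2712 bp and median folds of 3.06 and 3.65 in these 2 regions, against 324 and 684 bp and folds of 1.95 and 2.02 in the chromosome 9 regions. Median control pileup at the H3K27me3 members was 75.4 and 30.7 in the chromosome 11 regions. At the beginning of chromosome 8, positions 2 to 48742, 10 pairs had a median shared length of 242 bp.

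Fold over control was low at peaks with both marks, with a median of 1.76 against 2.86 at the other H3K27me3 peaks and 2.50 against 3.88 at the other H4K20me3 peaks. Their median -log10 q was higher, at 2.75 against 1.46 and 17.9 against 4.61. The other peaks were mostly at ordinary control. Among deep peaks alone, median folds were 1.75 with and 2.06 without the other mark for H3K27me3, and 2.50 and 3.01 for H4K20me3. Median -log10 q of these deep peaks was 2.77 and 1.99 for H3K27me3, and 17.9 and 5.38 for H4K20me3. The H4K20me3 fold was the higher one in 286 of 310 pairs, but it belongs to a summit in that list and is a mean over the region in the other. Of the 224 H3K27me3 members, 6 reached the median fold of their list, and of the 305 H4K20me3 members 33 did. Among the 178 H3K27me3 peaks of lowest fold (1.37 to 1.87), 148 carried H4K20me3, against 2 of the 177 of highest fold (2.92 to 3.61). Of the 100 peaks of highest -log10 q, in contrast, 81 of those for H3K27me3 and 87 of those for H4K20me3 had both marks. The lowest fold listed at ordinary control was 2.42 for H3K27me3 and 2.44 for H4K20me3. What part deep control had in these folds and q values was not tested.

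Within the members, fold tracked control depth. Over the 310 pairs the Spearman correlation of fold with control pileup was -0.96 for H3K27me3 (Pearson -0.80) and -0.51 for H4K20me3 (Pearson -0.49). Since the control pileup was solved from the fold, and only approximately for H3K27me3, the measures are not independent. Folds of the 2 marks in a pair had a Spearman correlation of 0.44 (Pearson 0.33), with that dependence on control on both sides. Among the 267 H3K27me3 peaks with a -log10 q of 2 or more, 176 (65.9%) met an H4K20me3 peak that also reached this value, and with fold at or above the list median in both, 1 of 355 (0.282%) did.

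The members of highest H3K27me3 fold were narrow. They were the peaks at chromosome 13 position 104994392 to 104994746 (fold 3.21), chromosome 8 position 6705437 to 6705767 (3.05), chromosome 7 position 79532412 to 79532764 (2.89), chromosome X position 54674688 to 54675064 (2.88) and chromosome 11 position 34329735 to 34330080 (2.87). Their widths were 331 to 377 bp, each met 1 H4K20me3 peak across 1 edge, and they shared 193 to 269 bp with it. Each held the summit of its partner, at 46.5 to 51.8% of its width except on X, where it was at 83.8%.

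The members of highest H4K20me3 fold lay on 5 chromosomes. The peak at chromosome 14 position 7340916 to 7344657 (3742 bp, fold 6.35) enclosed an H3K27me3 peak of 966 bp with fold 1.97. Folds of 5.90, 5.88, 5.64 and 5.54 were found at chromosome 7 position 56936757 to 56938080, chromosome X position 54674796 to 54675351, chromosome 13 position 108418475 to 108420276 and chromosome 17 position 40062150 to 40062922. The H4K20me3 peaks of this group on chromosomes 7, 13 and 17 crossed the start of their H3K27me3 partner, and their summits were within the first 15.9% of its width.

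At ordinary control in the H3K27me3 list there were 6 members, in 6 pairs, none of them enclosed in either direction. They measured 268 to 549 bp and had folds of 2.57 to 3.21 with control pileups of 6.94 to 8.41. Besides the chromosome 13 and 8 peaks and the X peak named above, they lay at chromosome X position 54665268 to 54665560, chromosome 9 position 621449 to 621997 and chromosome 11 position 34706925 to 34707192. In all 6 the summit of the H4K20me3 partner was inside the H3K27me3 peak, and shared lengths were 147 to 269 bp. The pair at ordinary control in both lists was the one on X, where the H3K27me3 peak at 54674688 to 54675064 (fold 2.88, control pileup 7.20) shared 269 bp with the H4K20me3 peak at 54674796 to 54675351 (fold 5.88, control pileup 4.78).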

How the data were processed

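The submitters' processing notes name Bowtie 1.1.1 and MACS2 2.1.0.20140616; parameters are not given in the sources used here. The genome is papAnu2 per the file names. The deposited lists give each peak's fold over control (a ratio), its -log10 p and -log10 q, and a score that was not used; the deposited H4K20me3 list also gives the summit as an offset from the peak start. The labels' protocol gives a lower bound on sequenced tags, but reads per library are not given in the sources used here, so the depth behind each peak is unknown. No values of the total H3 and total H4 libraries were analysed on their own, but either may be the control behind the deposited folds. Whether reads with several matches in the genome were kept is not given either, which bears on control depth in repeated DNA.

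Overlaps of at least 1 bp were computed with numpy 2.4.6 and pandas 2.3.3 in Python 3.11.15, and bedtools 2.31.1 gave the same 310 pairs. On made lists, 500 of 500 pairs of known kind were sorted rightly. Control pileup was solved from fold = (ChIP pileup + 1) / (control pileup + 1) and a Poisson upper tail with scipy 1.17.1. It gave whole ChIP pileups (tolerance 0.02) for all 10000 H4K20me3 peaks but only 5.78% of H3K27me3 peaks. Control values in the H3K27me3 list are therefore approximate, and this check does not verify them. Intervals of shares are exact (Clopper-Pearson) and those of medians come from exact binomial order statistics, both at 95%; neighbouring peaks are not independent.

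Named peaks were the 5 extremes by shared length (longest, shortest and nearest without overlap), number of partners in each direction and fold in each list, members at ordinary control, and the 5 regions with most pairs. Members and rules were chosen with earlier results of these data known. No genome or annotation of this build was used, so genes and sequences are not given. Figures were drawn with matplotlib 3.10.9.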

Additional observations from a re-analysis of the deposited data

How the results depend on the processing

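Of 70 alternative values for 8 results, 47 stayed within the 95% interval of the reported value and 23 did not; none has a test. Leaving out chromosome 9 gave 2.42% of H4K20me3 peaks with both marks, 12.7% of H4K20me3 members enclosed and 56.5% of H3K27me3 members enclosed. Leaving out chromosome 11 moved none of the 8. With 50% of the shorter peak required, summits were inside in 94.0% of pairs and 20.9% of H3K27me3 members had more than 1 partner. A -log10 q of at least 2 in both lists gave 65.9% of H3K27me3 and 2.48% of H4K20me3 peaks. A fold of at least the list median gave 0.282% and 0.019996%; it left 1 pair, from which no geometry was computed. With H4K20me3 peaks under 500 bp apart joined (7053 peaks), 9.81% of H4K20me3 and 67.9% of H3K27me3 members were enclosed and 3.57% of H3K27me3 members had more than 1 partner.

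The following, and every alternative for enclosed H3K27me3 members, were chosen after seeing the data. Without chromosomes 9 and 11 the 2 overlap shares were 27.02% and 2.14%, and the enclosed shares 13.6% of H4K20me3 and 56.1% of H3K27me3 members. Without the first 1 Mb of every chromosome 2.39% of H4K20me3 peaks had both marks, and 14.4% and 57.9% of members were enclosed. Ordinary control in both lists also left 1 pair (0.266% and 0.0117%), with no geometry computed. With 1 pair per region the median shared length was 490.0 bp and summits were inside in 96.7%. No paired analysis was possible because each mark has 1 library. Reads per library are not known. At ordinary control no fold under 2.42 (H3K27me3) or 2.44 (H4K20me3) was listed, so all listed peaks of lower fold were deep in control. What part this had in the overlap was not tested.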

Other observations

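The first 1 Mb of the chromosome numbering held 70 of the 310 pairs, of which 52 were on chromosome 9, 10 on chromosome 8, 7 on chromosome 12 and 1 on chromosome 7. Of the 74 H3K27me3 peaks listed there, 41 (55.4%, 43.4 to 67.0) overlapped H4K20me3. In these 70 pairs the H4K20me3 peak was enclosed in 27 (38.6%) and the H3K27me3 peak in 4 (5.71%), against 34 (14.2%) and 106 (44.2%) of the 240 pairs elsewhere. Median control pileups were 118 at the H3K27me3 and 82.9 at the H4K20me3 peak, against 61.9 and 53.6 elsewhere, and median folds were 1.52 and 2.05, against 1.76 and 2.75. On chromosome 9 itself, the H4K20me3 peak was enclosed in 23 and the H3K27me3 peak in 2 of the 52 pairs in the first 1 Mb, and in 8 and 3 of the 16 pairs beyond it. On the other chromosomes these were 4 and 2 of 18 pairs in the first 1 Mb, and 26 and 103 of 224 beyond it. The chromosome 9 regions at 3078681 to 3087156 and 3195586 to 3212499, outside the first 1 Mb, had 8 enclosed H4K20me3 and 0 enclosed H3K27me3 peaks in 6 and 7 pairs together. Their H3K27me3 members had median control pileups of 123 and 99.0 and median folds of 1.498 and 1.59.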
